A study of Mus musculus with 6 samples.

Results

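The imprinted genes described here are 38 genes of 47069 in the count files. They were chosen by their known imprinting in the mouse, at a time when their fold changes between the genotypes of these mice had already been seen. The fold changes below are therefore a description and carry no test of the list. RNA came from the inguinal subcutaneous white adipose tissue (SC-WAT) of 3 Egr1+/+ (wild-type) and 3 Egr1-/- (mutant) mice, and each mouse gave 1 library. All 6 were female mice aged 2 weeks of the C57BL/6 strain (C57BL/6 J in the study's methods), bred from Egr1+/- parents, and they came from 4 litters. The mutant allele carries a LacZ insertion in the 5′ untranslated region of Egr1 and a frameshift upstream of the sequence for the DNA-binding domain. The allele is constitutive, so every cell of the Egr1-/- mouse lacks the EGR1 transcription factor, not only the fat pad.

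An imprinted gene is transcribed mainly from the copy inherited from a given parent, because DNA methylation set in the egg or the sperm marks the copies differently. Many imprinted genes act on fetal growth, are abundant before birth and decline in the weeks after it. In fat, Dlk1 restrains the differentiation of preadipocytes, Mest is tied to the expansion of fat, and IGF2 and its regulators act on growth. The counts do not separate the parental copies, so the expressed allele given for each gene is general knowledge about the mouse and was not measured here.

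The 38 genes lie in 19 clusters or single loci, 14 of the genes on chromosome 7 and 7 on chromosome 6. Of these genes, 31 code for proteins and 7 are noncoding. By their known expressed allele, 13 are maternally expressed, 21 are paternally expressed, and 4 (Gnas, Blcap, Inpp5f and H13) depend on the isoform or the tissue. After the filter on low counts 35 of the 38 genes could be fitted, among 17667 genes in all. Phlda2, a placental growth restrictor, had 0 counts in each mouse. Ascl2, a transcription factor of the placenta, had 1, 0 and 4 counts in the wild-type mice and 0 counts in each Egr1-/- mouse. Rtl1, a retrotransposon-derived gene of the Dlk1-Meg3 cluster, had 20, 12 and 5 counts in wild-type mice and 11, 4 and 8 counts in Egr1-/- mice.

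EGR1 binds GC-rich DNA, so the start sites of the listed genes were searched for the letters GCGNGGGCG, an EGR-type motif in which N is any base, on both strands. RefSeq windows from 250 bases before to 50 bases after a start site (GRCm38.p6) were found for 30 of the genes, with 47 windows in all. The start sites of H19, Cdkn1c, Klf14, Peg10, Sgce, Rtl1, Peg13 and Impact were not among them and were not searched. The motif was in 2 of these 47 windows (4.26%) and in 5.55% of 32851 windows genome-wide. These windows were CpG-rich, with a median of 13 CG dinucleotides against 7 genome-wide. The matching windows belonged to Gnas (chr2:174329756-174330055, plus strand) and Igf2r (chr17:12769657-12769956, minus strand). They are shown with the matched letters in capitals, which for Gnas lie on the strand opposite to the gene. A match is a string of letters and not a measured binding site.
Gnas: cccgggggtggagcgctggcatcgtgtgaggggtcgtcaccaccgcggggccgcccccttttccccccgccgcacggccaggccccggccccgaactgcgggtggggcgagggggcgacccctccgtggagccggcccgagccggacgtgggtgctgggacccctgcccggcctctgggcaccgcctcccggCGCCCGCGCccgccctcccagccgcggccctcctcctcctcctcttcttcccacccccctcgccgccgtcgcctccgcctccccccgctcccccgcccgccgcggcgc
Igf2r: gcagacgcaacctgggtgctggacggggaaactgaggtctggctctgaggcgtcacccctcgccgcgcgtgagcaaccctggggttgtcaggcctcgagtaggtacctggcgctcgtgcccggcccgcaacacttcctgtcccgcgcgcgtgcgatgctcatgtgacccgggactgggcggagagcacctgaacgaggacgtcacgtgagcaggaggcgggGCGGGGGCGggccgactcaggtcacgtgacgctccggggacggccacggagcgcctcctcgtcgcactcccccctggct
Igf2 had 4 such windows, and the motif was in 0 of them. The most CpG-rich (chr7:142658755-142659054, minus strand, with 24 CG dinucleotides) is shown because Igf2 and H19 open the account of single genes below. Its capitals mark the CG dinucleotides, the kind of site at which DNA is methylated, but methylation of this window was not measured here.
Igf2: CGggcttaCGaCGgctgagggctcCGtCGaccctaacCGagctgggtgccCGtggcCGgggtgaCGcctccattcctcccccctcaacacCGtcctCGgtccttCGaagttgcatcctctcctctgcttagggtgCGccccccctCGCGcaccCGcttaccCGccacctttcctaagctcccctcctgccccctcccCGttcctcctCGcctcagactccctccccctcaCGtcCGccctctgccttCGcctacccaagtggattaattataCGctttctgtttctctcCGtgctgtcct

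H19, Igf2 and Mest also carry microRNA genes, miR-675 within an exon of H19, miR-483 inside Igf2 and miR-335 inside Mest. The mature RefSeq sequences (GRCm38.p6) are given with the seed, bases 2 to 8, in capitals. No seed was shared among these 6 sequences.
miR-675-5p: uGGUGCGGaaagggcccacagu
miR-675-3p: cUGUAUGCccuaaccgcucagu
miR-483-5p: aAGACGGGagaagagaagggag
miR-483-3p: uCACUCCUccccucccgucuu
miR-335-5p: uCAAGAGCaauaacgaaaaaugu
miR-335-3p: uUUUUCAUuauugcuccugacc
The libraries were made from total RNA without selection of small RNAs, so counts on microRNA genes do not measure the mature forms. Of 14 small RNA genes within or beside the listed genes, 0 passed the filter, and Mir675 and Mir483 had 0 counts in every mouse. For Mir335 the counts were 3, 2 and 25 in the wild-type and 5, 0 and 3 in the mutant mice. Its highest count was in Egr1+/+ mouse 3, the mouse with the most Mest.

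Between 29661984 and 42357981 counts fell on genes in each mouse, and mitochondrial genes took 50.0% to 66.3% of them. The counts of Egr1 itself, 353, 241 and 711 in the wild-type and 103, 84 and 57 in the mutant mice, did not overlap and went with the labels. Levels are given in CPM, counts per 1000000 of the TMM-normalised library, and levels of different genes are compared only after division by exon length. Adipocyte markers summed to between 5002 and 6680 CPM over 8 genes in every mouse, so the defining markers of the labelled tissue were present. Skeletal muscle markers were present too and ranged 28.0-fold between mice, from 139 CPM in Egr1-/- mouse 1 to 3882 CPM in Egr1+/+ mouse 2.

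The imprinted genes covered a wide range of levels in the juvenile fat pad. By CPM per kb in Egr1+/+ mice, their median was at the 72.0th percentile of the 17597 fitted genes with a known exon length, and the 3 genes that could not be fitted are not part of it. Per kilobase of exon, Nnat was the most abundant, with a mean of 411 CPM per kb in Egr1+/+ SC-WAT, followed by H19 with 297 CPM per kb. Mest (48.7 CPM per kb), Peg3 (44.9), Gnas (31.9) and Igf2 (21.4) came next. Among wild-type mice the ranges of Nnat and H19 overlapped, as did those of Mest and Peg3, whereas H19 and Mest, Peg3 and Gnas, and Gnas and Igf2 did not. At the lower end were Usp29 (0.302), Asb4 (0.235) and Magel2 (0.118 CPM per kb). Dlk1, the classical preadipocyte gene, was also low at 0.423 CPM per kb. Spread between mice of a genotype was similar to that of other genes, with a median SD of 0.27 on the log2 scale for the imprinted genes and 0.24 for all fitted genes.

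**Figure D1:**
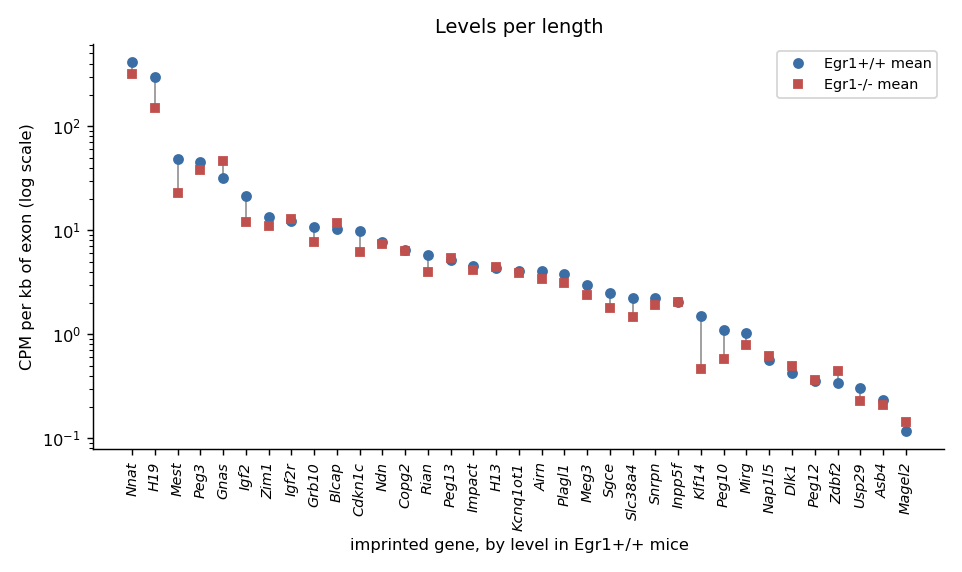
Mean level of the 35 fitted imprinted genes in CPM per kb of exon, on a log scale, in 3 Egr1+/+ mice (circles) and 3 Egr1-/- mice (squares), ordered by the Egr1+/+ level. Nnat (411) and H19 (297 CPM per kb) stand above the other genes in Egr1+/+ SC-WAT, and Klf14 shows the widest gap between genotypes.

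In Egr1-/- SC-WAT, 24 of the 35 fitted imprinted genes had a lower and 11 a higher fitted level than in Egr1+/+ SC-WAT, and under total-count scaling 30 were lower and 5 higher. On the log2 scale the median fold change of the list (Egr1-/- over Egr1+/+) was -0.25, beside 0.0011 for all fitted genes. Under total-count scaling, which moved the median of all genes to -0.15, the median of the imprinted genes was -0.43. None of the 35 (0 genes) passed the Benjamini-Hochberg threshold of 0.05 in edgeR's quasi-likelihood test, which called 3 genes, or 0.0170%, of all those fitted. At an unadjusted p under 0.05 there were 11 imprinted genes, 10 lower and 1 higher, where 10.7% of all fitted genes lay. DESeq2 called 7 of the imprinted genes and 2.07% of all genes. Its 7 were H19, Igf2, Cdkn1c, Klf14, Grb10 and Peg10, all lower, and Gnas, higher. In 8 genes every Egr1-/- mouse was below every Egr1+/+ mouse, against 8.10% of all fitted genes, and in 1 gene every Egr1-/- mouse was above, against 8.15%. Nothing is read from these counts about the list, because its genes were chosen with this contrast in view. In whole tissue, fewer cells of a type and less RNA per cell cannot be told apart.

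The genes with full separation of the mice are given first, starting with the H19-Igf2 cluster. H19 (ENSMUSG00000000031, chr7:142575529-142578143, minus strand, GRCm38) is a maternally expressed long noncoding RNA that restrains growth. It stood at 835, 645 and 713 CPM in wild-type mice and at 380.5, 268 and 468 CPM in Egr1-/- mice. All Egr1-/- mice were lower, and the lowest was mouse 2. The means were 731 ± 96.5 CPM (SD, n = 3) and 372 ± 100.5 CPM (SD, n = 3), and the fitted log2 fold change was -0.97 (SE 0.208). H19 is also deep in counts, with 8299 to 30719 counts per mouse, so counting error is small beside the spread between mice.

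Igf2 (ENSMUSG00000048583, chr7:142650766-142666816, minus strand) encodes the fetal growth factor of the same cluster and is paternally expressed. It measured 142, 90.6 and 135 CPM in wild-type mice and 75.7, 62.7 and 68.1 CPM in Egr1-/- mice, so again no Egr1-/- mouse reached the lowest control. The log2 fold change was -0.83 (SE 0.176). The known enhancers of the cluster serve H19 on the maternal and Igf2 on the paternal chromosome, so the ratio of their counts was taken in each mouse. The H19 to Igf2 ratio was 5.88, 7.12 and 5.28 in wild-type mice and 5.03, 4.28 and 6.88 in Egr1-/- mice. The ratios overlapped, with means of 6.09 ± 0.935 and 5.39 ± 1.34 (SD, n = 3 each). Both transcripts were lower while their ratio varied 1.66-fold over the 6 mice.

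Cdkn1c (chr7:143458339-143461050) encodes the cyclin-dependent kinase inhibitor p57 and is maternally expressed. The Egr1+/+ mice had 20.6, 20.1 and 19.2 CPM and the mutants 13.5, 11.4 and 12.7 CPM. It was the tightest of the separated genes, with a within-genotype SD of 0.093 on the log2 scale and a log2 fold change of -0.67 (SE 0.115). Of the other genes of its domain, the paternally expressed noncoding RNA Kcnq1ot1, which silences its neighbours in cis, had 377, 406 and 356 CPM in wild-type mice and 422, 374 and 296 CPM in Egr1-/- mice. Those values overlapped, with a log2 fold change of -0.06 (SE 0.155).

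Klf14 (chr6:30956023-30959078), a maternally expressed Krüppel-like factor linked to fat metabolism, had the lowest fold change of the list. Its counts were 130, 105 and 279 in wild-type mice and 64, 33 and 40 in Egr1-/- mice. In CPM these were 3.78, 3.50 and 6.47 against 1.92, 1.06 and 1.29, with no overlap and a log2 fold change of -1.68 (SE 0.321). The level in Egr1+/+ mouse 3 was the highest by a wide margin, and without that mouse the log2 fold change was -1.35.

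Grb10 (chr11:11930508-12038683), a maternally expressed adaptor that damps signalling by the insulin and IGF receptors, was at 97.3, 102 and 91.0 CPM in Egr1+/+ mice. In Egr1-/- mice it was at 80.7, 60.1 and 67.1 CPM, each below every control, for a log2 fold change of -0.48 (SE 0.134).

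Peg10 and Sgce, paternally expressed neighbours on chromosome 6, were both lower in each Egr1-/- mouse. Peg10 (chr6:4747306-4760517), derived from a retrotransposon and needed in the placenta, had 6.84, 8.32 and 6.91 CPM in wild-type mice and 5.46, 2.74 and 3.40 CPM in Egr1-/- mice. Sgce (chr6:4674350-4747207), which encodes epsilon-sarcoglycan, had 22.8, 27.2 and 29.1 CPM against 19.8, 18.5 and 18.2 CPM. The log2 fold changes were -0.92 (SE 0.253) and -0.48 (SE 0.124). Asb4, the maternally expressed gene of this cluster, was near the floor at 0.923 CPM and 0.825 CPM, and its mice overlapped.

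Slc38a4 (chr15:96994820-97055956), a paternally expressed amino acid transporter, is the last of the lower genes with separated mice. It was at 8.94, 10.6 and 9.14 CPM in wild-type mice and 6.27, 4.94 and 7.34 CPM in Egr1-/- mice, and the log2 fold change was -0.63 (SE 0.178).

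Gnas (chr2:174284320-174346744), which encodes the stimulatory G protein alpha subunit that couples adrenergic receptors to cyclic AMP, went the other way. It was at 405, 326 and 341 CPM in wild-type mice and 553, 418 and 566 CPM in Egr1-/- mice. Every Egr1-/- mouse was higher, and Egr1-/- mouse 2 came closest to the controls. The means were 357 ± 42.1 and 513 ± 81.9 CPM (SD, n = 3 each), a log2 fold change of 0.52 (SE 0.160). The locus makes several transcripts with different imprinting that are summed in the gene count, and 22.0% of its exon bases overlap genes on the opposite strand, Nespas among them. The summed CPM of brown or beige adipocyte markers was higher in the same mice, with 636, 516 and 485 CPM in Egr1+/+ and 1243, 871 and 1459 CPM in Egr1-/- mice over 6 genes, none of them at 0. The part of those cells in the Gnas level was not tested.

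**Figure D2:**
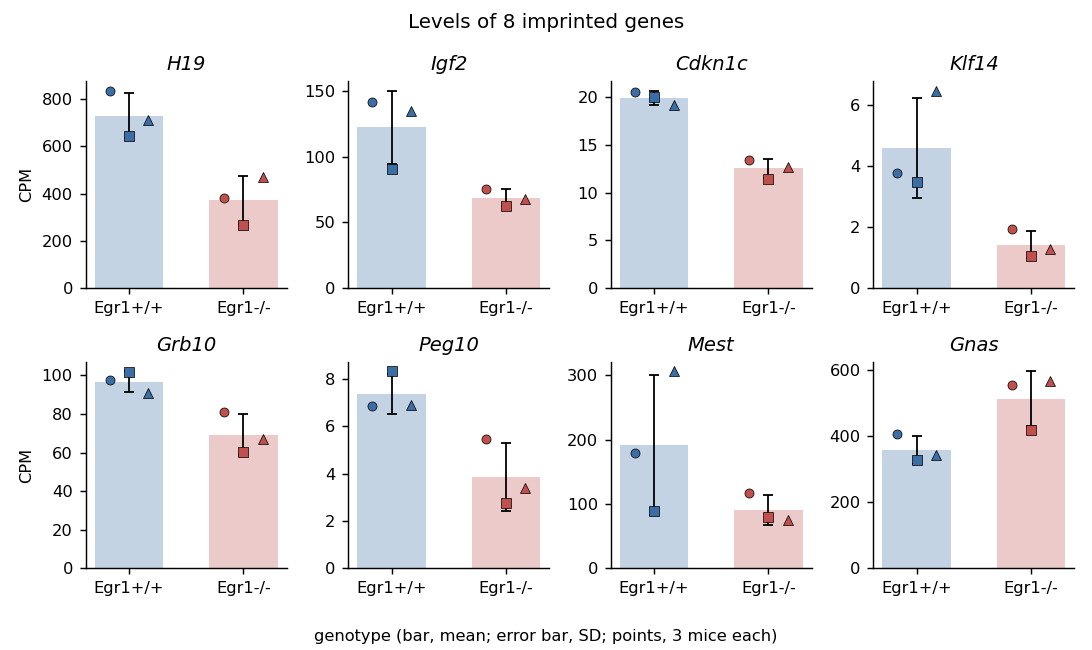
CPM of 8 imprinted genes by genotype, with bars for the mean, error bars for the SD and points for the 3 mice of each genotype (circle, mouse 1; square, mouse 2; triangle, mouse 3). H19, Igf2, Cdkn1c, Klf14, Grb10 and Peg10 do not overlap between genotypes and are lower in Egr1-/- mice, Gnas does not overlap and is higher, and in Mest the second Egr1+/+ mouse (90.1 CPM) lies within the Egr1-/- range.

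Mest (chr6:30723547-30748465), paternally expressed and encoding a hydrolase-like protein whose level in fat tracks its expansion, showed the widest spread among the abundant genes. It was at 180, 90.1 and 306 CPM in wild-type mice and 117, 79.6 and 74.8 CPM in Egr1-/- mice. The Egr1+/+ mice differed 3.40-fold, and the within-genotype SD of 0.67 on the log2 scale was larger than in 91.5% of fitted genes. Its log2 fold change of -1.09 (SE 0.377) was second only to Klf14, yet it came to -0.58 without Egr1+/+ mouse 3. The genotypes overlapped through Egr1+/+ mouse 2.

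Copg2, a coatomer subunit gene that runs into Mest from the opposite strand, was in contrast among the steadiest genes. It was at 31.5, 32.9 and 35.6 CPM in wild-type mice and 32.3, 32.1 and 32.4 CPM in Egr1-/- mice, and the log2 fold change was -0.05 (SE 0.102). The Mest to Copg2 ratio therefore followed Mest and varied 3.73-fold, from 2.31 to 8.62. Of the exon bases of Mest, 23.1% overlap Copg2, and the strand setting of the counting is not given in the sources used here.

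The Dlk1-Meg3 cluster on chromosome 12 holds the paternally expressed Dlk1 and the maternally expressed noncoding RNAs Meg3, Rian and Mirg. Dlk1, a membrane protein that inhibits adipogenesis, was at 2.74, 1.96 and 2.48 CPM in wild-type mice and 4.02, 1.91 and 2.52 CPM in Egr1-/- mice. Egr1-/- mouse 1 was above the control range, mouse 2 was just under it, and the log2 fold change was 0.23 (SE 0.300), but -0.11 without mouse 1. Meg3 was at 52.5, 45.9 and 64.5 CPM against 55.3, 37.7 and 37.3 CPM. Rian, the host of small nucleolar RNAs, was at 106, 90.1 and 118 CPM against 95, 57.5 and 65.0 CPM. Mirg, the host of microRNAs, was at 7.16, 6.19 and 9.16 CPM against 7.44, 4.87 and 4.95 CPM. In all 3 noncoding RNAs, Egr1-/- mice 2 and 3 were below the controls and Egr1-/- mouse 1 was among them. The log2 fold changes were -0.32 (SE 0.186) for Meg3, -0.53 (SE 0.193) for Rian and -0.38 (SE 0.223) for Mirg.

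These 3 RNAs are thought to be transcribed together, and their ratios within a mouse were narrow. The Mirg to Meg3 ratio of counts lay between 0.129 and 0.142 in the 6 mice. The Rian to Meg3 ratio was 2.02, 1.96 and 1.82 in wild-type mice and 1.72, 1.53 and 1.74 in Egr1-/- mice. In neither ratio did the genotypes overlap, but both ratios were chosen after their values had been seen. For Mirg to Meg3, Egr1+/+ mouse 2 (0.135) and Egr1-/- mouse 1 (0.1345) all but met. With 186 and 248 Mirg counts in these mice, that gap is within counting error. The Meg3 to Dlk1 ratio, between RNAs of opposite parental copies, ranged from 13.8 to 26.0 and overlapped.

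The Peg3 cluster, at the start of chromosome 7, showed overlap between the genotypes in each of its 3 genes. Peg3, a paternally expressed zinc finger protein, was at 497, 544 and 753 CPM in wild-type mice and 568, 450.2 and 494 CPM in Egr1-/- mice. Zim1, its maternally expressed neighbour, was at 75.8, 107 and 144 CPM against 103, 79.8 and 85.0 CPM. Both were highest in Egr1+/+ mouse 3 and overlapped between genotypes, with log2 fold changes of -0.25 (SE 0.181) and -0.28 (SE 0.217). Without that mouse these were -0.05 and -0.03. Usp29, an ubiquitin-specific peptidase gene that starts beside Peg3, had a log2 fold change of -0.40 (SE 0.277) at 5.46 ± 1.43 and 4.12 ± 1.30 CPM (SD, n = 3 each).

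Nnat, the most abundant gene of the list per length, encodes the membrane proteolipid neuronatin. It was at 792, 528 and 933 CPM in wild-type mice and 735, 479 and 546 CPM in Egr1-/- mice. The groups overlapped and the log2 fold change was -0.36 (SE 0.233). Blcap, the gene in whose intron Nnat lies, was at 31.3 ± 5.77 CPM and 35.6 ± 2.69 CPM (SD, n = 3 each), with a log2 fold change of 0.18 (SE 0.145). Plagl1, the zinc finger factor also known as Zac1 and a regulator of other imprinted genes, was at 32.1, 22.9 and 34.9 CPM against 23.8, 29.3 and 19.4 CPM, with a log2 fold change of -0.31 (SE 0.192).

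Igf2r, the maternally expressed receptor that clears IGF2, differed little between mice. It was at 116, 108 and 121 CPM in wild-type mice and 112, 116 and 128 CPM in Egr1-/- mice, with a log2 fold change of 0.05 (SE 0.113) that was negative under total-count scaling. Airn, the paternally expressed RNA antisense to it, was at 17.7, 9.29 and 16.5 CPM against 14.4, 12 and 10.2 CPM. The Airn to Igf2r ratio, also chosen after its values had been seen, varied 1.92-fold and overlapped between genotypes.

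In the Prader-Willi domain of chromosome 7, the paternally expressed Ndn, a growth-suppressing MAGE protein, had 28.2 ± 2.33 CPM in Egr1+/+ and 27.0 ± 5.03 CPM in Egr1-/- mice (SD, n = 3 each). Its log2 fold change was -0.06 (SE 0.152). Snrpn, a splicing protein gene that shares 27.3% of its exon bases with Snurf and another gene on its strand, had 4.80 ± 0.311 and 4.12 ± 0.944 CPM, a log2 fold change of -0.22 (SE 0.208). Magel2 and Peg12 were at or under 1.23 CPM in every mouse, and Magel2 differed 9.06-fold among the Egr1+/+ mice. All 4 overlapped between genotypes.

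Of the remaining single loci, Zdbf2, a paternally expressed zinc finger gene, had 4.02, 4.99 and 3.99 CPM in wild-type mice and 5.85, 4.97 and 5.85 CPM in Egr1-/- mice. Its log2 fold change of 0.36 (SE 0.176) was the highest after Gnas, and Egr1-/- mouse 2 overlapped the controls. Impact, which regulates translation, had a log2 fold change of -0.13 (SE 0.127). Peg13, a noncoding RNA, Nap1l5, a nucleosome assembly protein-like gene, Inpp5f, an inositol phosphatase gene, and H13, the signal peptide peptidase gene, had log2 fold changes from 0.01 to 0.12 that were all negative under total-count scaling.

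**Figure D3:**
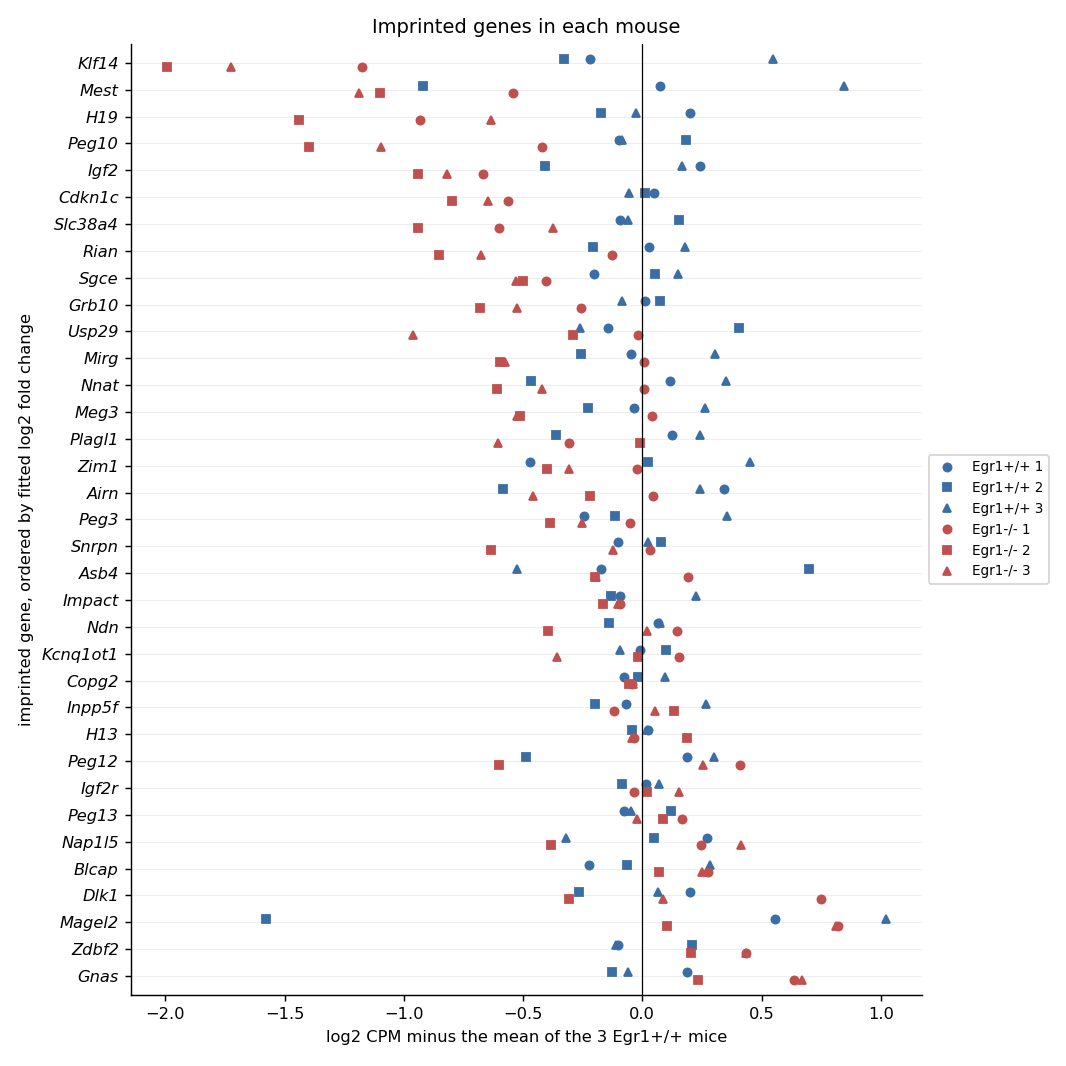
Log2 CPM of each fitted imprinted gene in each mouse minus the mean of the 3 Egr1+/+ mice, with genes ordered by fitted log2 fold change. Blue marks Egr1+/+ and red Egr1-/- mice, with a circle for mouse 1, a square for mouse 2 and a triangle for mouse 3; for many genes the red circle lies among the blue points while the red square and triangle lie to the left.

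The Egr1-/- mice were not alike. The median deviation of the 35 genes from the Egr1+/+ mean, on the log2 scale, was -0.02 in Egr1-/- mouse 1, -0.39 in mouse 2 and -0.31 in mouse 3. The Egr1+/+ mice themselves had medians of -0.01, -0.11 and 0.10. By this median, Egr1-/- mouse 1 lay within the range of the controls, although it was below all of them in H19, Igf2, Cdkn1c, Klf14, Grb10, Peg10, Sgce and Slc38a4. This mouse also had the largest library, the largest mitochondrial share at 66.3% and the lowest skeletal muscle signal. The part of these features in its imprinted gene levels was not tested. Without it, the median log2 fold change of the imprinted genes was -0.34, and it was -0.15 without Egr1+/+ mouse 3. With each mouse left out in turn, the fold change of 11 genes stayed within 1.5 times its value, among them the 9 with separated mice. It moved by more in 14 genes, Mest, Nnat, Peg3 and Meg3 among them, and turned its sign in 10, which were Igf2r, Kcnq1ot1, Dlk1, Ndn, Magel2, Peg12, Asb4, Nap1l5, Inpp5f and H13.

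Maternally and paternally expressed genes were set side by side, as imprinted genes of the maternal copy often restrain growth and those of the paternal copy often promote it. Of 11 fitted maternally expressed genes, 10 were lower and 1, Igf2r, was higher. Their median log2 fold change was -0.38, the value of Mirg. Meg3, Rian and Mirg among them are thought to be transcribed together, so the 11 are not separate observations. Of 20 fitted paternally expressed genes, the fitted level was lower for 14 and higher for 6, at a median of -0.23. The ranges overlapped widely, from -1.68 to 0.05 and from -1.09 to 0.36. In each set 4 genes had every Egr1-/- mouse below every control, as 8.10% of all fitted genes did, H19, Cdkn1c, Klf14 and Grb10 on the maternal side and Igf2, Peg10, Sgce and Slc38a4 on the paternal side. Without Egr1-/- mouse 1 the maternal and paternal medians were -0.60 and -0.32, and without Egr1-/- mouse 2 they were -0.28 and -0.14. Without Egr1+/+ mouse 3 they were -0.40 and -0.13. Under total-count scaling the medians were -0.58 and -0.41. The 4 genes with isoform- or tissue-dependent imprinting were all higher, with a median of 0.11, but Inpp5f and H13 were lower under total-count scaling. The difference between the sets was not tested.

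**Figure D4:**
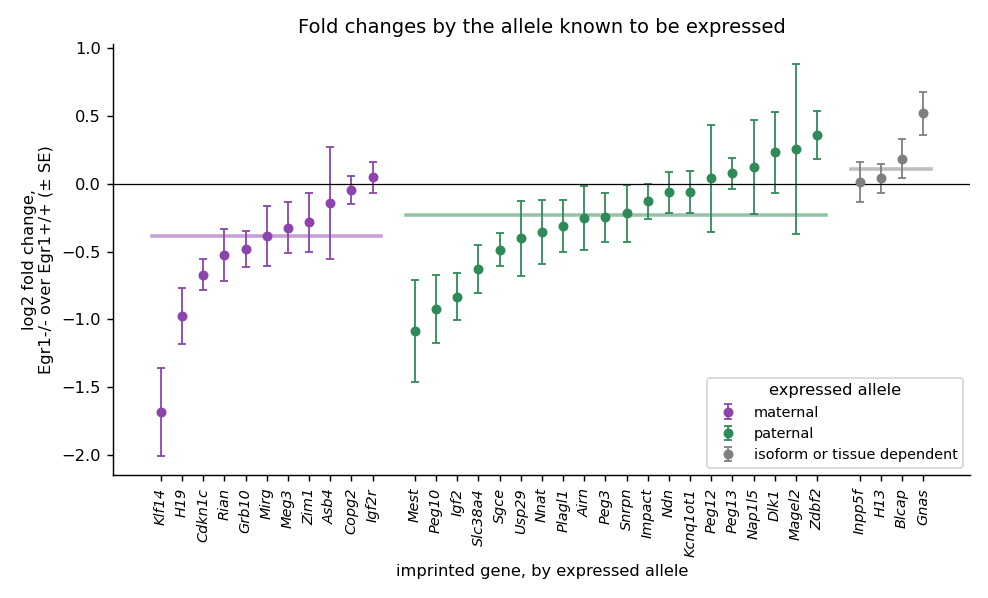
Fitted log2 fold change (Egr1-/- over Egr1+/+) with its SE for 11 maternally expressed genes, 20 paternally expressed genes and 4 genes whose imprinting depends on the isoform or tissue, with a horizontal line at each median. The medians are -0.38, -0.23 and 0.11, and the spread within each of the first sets is wider than the gap between them. Inpp5f, H13, Igf2r, Peg12, Peg13 and Nap1l5 lie above 0 here and below 0 under total-count scaling.

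Whole fat pads mix cell types, so marker lists were read in the same libraries. The summed CPM of 9 adipose stromal progenitor markers was 618, 576 and 572 in wild-type mice and 491, 373 and 397 in Egr1-/- mice, with 8 of the 9 lower and none at 0. As with many imprinted genes, Egr1-/- mouse 1 lay closest to the controls. Macrophage, Schwann cell and erythroid sums were also lower in every Egr1-/- mouse. So was the adipocyte sum, in which Fabp4 alone held 3928 CPM in wild-type mice, although 3 of the 8 adipocyte markers (Lipe, Pnpla2 and Plin1) had a higher fitted level. The sum of brown or beige adipocyte markers was higher, and the other 5 of the 11 lists overlapped. The nerve gene Th was at 0 in every mouse. Macrophage markers summed to between 280 and 364 CPM in Egr1+/+ and between 213 and 250 CPM in Egr1-/- mice, with 6 of 6 lower. Cell cycle markers, a sign of growing tissue, summed to 243, 91.0 and 101 CPM against 131, 95.9 and 120 CPM and overlapped. Yet all 8 of these markers had a lower fitted level in Egr1-/- mice, at a median log2 fold change of -0.25. An unadjusted edgeR p under 0.05 was reached by 0 of them. The part of a lower share of stromal or other cells in the imprinted gene levels was not tested.

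Skeletal muscle, which also expresses H19 and Igf2, was highest in Egr1+/+ mouse 2 and Egr1-/- mouse 3. The muscle list summed to 1298, 3882 and 257 CPM in wild-type mice and 139, 426 and 3110 CPM in Egr1-/- mice, and the genotypes overlapped. Of its 12 genes, 10 had a lower and 2 a higher fitted level, at a median log2 fold change of -0.74. An unadjusted edgeR p under 0.05 was reached by 0 of the 12. Without those muscle-rich mice, a choice made after seeing the data, H19 had a log2 fold change of -1.26 and Igf2 of -1.0. With the muscle marker level as a covariate they were -0.95 and -0.87. The median of the imprinted genes was -0.27 without those mice and -0.29 with the covariate.

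**Figure D5:**
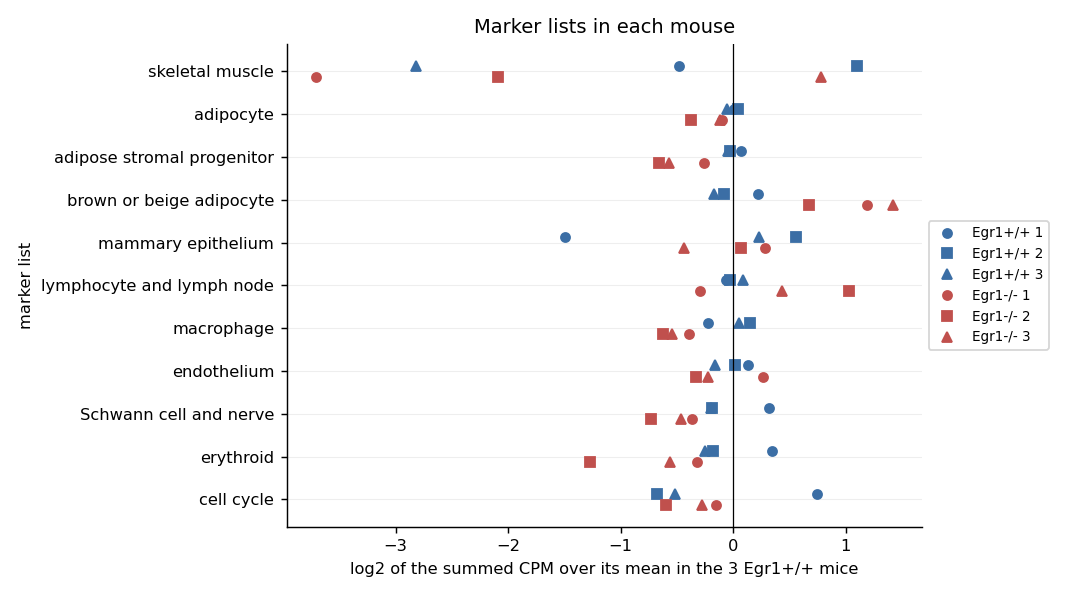
Summed CPM of 11 marker lists in each mouse, as log2 of the ratio to the mean of the 3 Egr1+/+ mice (blue, Egr1+/+; red, Egr1-/-; circle, square and triangle for mice 1 to 3). Stromal progenitor sums are 373 to 491 CPM in Egr1-/- mice against 572 to 618 CPM in Egr1+/+ mice, while muscle sums spread over a 28.0-fold range across the 6 mice and overlap.

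The wider IGF axis, through which IGF2, GRB10 and IGF2R act, was read together with fetal growth genes such as Lin28b and Hmga2. This joint list held 20 genes, of which 17 were fitted. Fold changes were negative for 14 and positive for 3 of them, at a median of -0.29 on the log2 scale. In edgeR's test 0 passed the adjusted threshold in either direction. An unadjusted p under 0.05 was found in 6, all lower, beside 10.7% of all fitted genes, and DESeq2 called 4, all lower, beside 2.07%. Igf1, the postnatal growth factor, was at 281 ± 51.5 CPM in Egr1+/+ and 162 ± 2.13 CPM in Egr1-/- mice (SD, n = 3 each), a log2 fold change of -0.80 (SE 0.150). The secreted IGF-binding proteins Igfbp5, Igfbp6 and Igfbp7 had log2 fold changes of -0.58, -1.0 and -0.52. In these 4 genes each Egr1-/- mouse was below each Egr1+/+ mouse, but they were named for having the lowest p of the list. Of its 17 fitted genes, 6 were separated in this way, beside 8.10% of all fitted genes.

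Imprint maintenance and DNA methylation, with DNA methyltransferases, TET enzymes, ZFP57 and its partners among the genes, were read from 18 genes, 16 of them fitted. Fold changes were positive for 12 and negative for 4, at a median of 0.08 on the log2 scale. The adjusted threshold was passed by 0 in edgeR and by 0 in DESeq2, and 1 of the 16 had an unadjusted p under 0.05, which 10.7% of all fitted genes had. The genes with the lowest p are given as values. Tet3, which oxidises methylcytosine, was at 53.3 ± 3.31 and 66.5 ± 7.27 CPM (SD, n = 3 each), a log2 fold change of 0.32 (SE 0.120). Tet1 had -0.28 (SE 0.134), the corepressor Trim28 had 0.19 (SE 0.105) and Uhrf1, which recruits DNMT1 to replicated DNA, had 0.26 (SE 0.203).

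A further 41 genes reported as imprinted in the mouse were read beside the listed ones, 38 of them found in the files and 30 fitted. They divided evenly, 15 in each direction, around a median of 0.01 on the log2 scale. The edgeR test called 0 of them. DESeq2 called 3, and 4 were under 0.05 by the unadjusted edgeR p, all of these lower in the mutants, beside 2.07% and 10.7% of all fitted genes. The genes with the lowest p are named by the rule set for each list. Qpct, a glutaminyl cyclase gene, had a log2 fold change of -0.89 (SE 0.180), Gatm, of creatine synthesis, -0.63 (SE 0.153), and Commd1, of copper handling, -0.67 (SE 0.180). Tfpi2, a protease inhibitor gene known for imprinting in the placenta, had -0.97 (SE 0.391) at 1.36 and 0.689 CPM. The lower median of the listed genes was not seen in the further genes, and the difference between the lists was not tested.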

How the data were processed

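Strand-specific libraries were made from ribosome-depleted RNA of whole inguinal SC-WAT, 1 for each mouse. The paper describes paired-end reads, whereas the labels give single-end reads. The authors mapped the reads with TopHat2 and Bowtie2 to the mouse genome (mm10, GRCm38.p4 per the labels) and deposited raw read counts per gene from featureCounts on GENCODE annotation, without normalization. The strand and multimapping settings of the counting are not given in the sources used here, so genes overlapping on opposite strands may share reads. Genotype and replicate number come from the labels, and no mouse was left out.

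Identifiers were named through GENCODE M21, which matched 46574 of 47069 genes. Coordinates and exon lengths come from the same annotation (GRCm38), promoter windows and microRNAs from RefSeq (GRCm38.p6). The list of imprinted genes, the allele assigned to each, and the marker and pathway lists were chosen with earlier results of these data known. Every listed gene is reported, and of each other pathway list up to 4 genes with the lowest p are named.

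The fit used edgeR 4.0.16 in R 4.3.3, with TMM scaling, the filterByExpr filter and quasi-likelihood F tests across all fitted genes with Benjamini-Hochberg adjustment at 0.05. For log2 CPM, 2 counts were added as a prior. SE values are those of the quasi-likelihood fit. Totals of 29661984 to 42357981 counts per mouse set the precision, so genes near 1 CPM rest on few counts. The code was tested on simulated data. Alternatives were DESeq2 1.42.0, limma-voom (limma 3.58.1), RLE, upper-quartile and total-count scaling, other filters, removal of mitochondrial genes, a muscle covariate, a block for the replicate number, and leaving out single mice. Leaving out both muscle-rich mice was added after seeing the data. The numbers do not mark littermates in the labels, and the study states that 1 mouse of each genotype were littermates without naming them. An exact permutation test of 3 mice against 3 could reach no two-sided p under 0.1.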

Additional observations from a re-analysis of the deposited data

How the results depend on the processing

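The number of genes called across the transcriptome depended strongly on the method. It was 3 with the main method, 366 with DESeq2, 1 with limma-voom, 3 with RLE scaling, 0 with upper-quartile scaling, 79 with total-count scaling, 3 without mitochondrial genes, 552 with no filter on low counts (38261 genes tested), 0 with a filter of 1 CPM in 3 mice and 6 with the muscle covariate. Leaving out each mouse in turn gave 0 to 60 calls, the 60 without Egr1-/- mouse 1, and leaving out both muscle-rich mice gave 0. Among the imprinted genes, 7 were called by DESeq2, 2 (H19 and Klf14) with total-count scaling, 6 (H19, Igf2, Cdkn1c, Klf14, Mest and Peg10) with no filter and 0 in the other alternatives. The median log2 fold change of the imprinted genes stayed negative in every alternative run, and lay between -0.34 and -0.15 with each mouse left out. Under total-count scaling, which leaves out the TMM factors, the median of all fitted genes was -0.15. That of the imprinted genes was -0.43, that of the paternally expressed genes was -0.41, and 5 imprinted genes were higher. The part of the offset common to all genes in the shift of the imprinted genes was not tested.

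With the replicate block, 0 genes were called, the median log2 fold change of the imprinted genes was -0.23 and that of H19 was -1.0. The labels do not say that the numbers pair the mice. Same-numbered mice had correlations of deviations of -0.0888, 0.106 and -0.126, and 1 of 3 Egr1+/+ mice correlated best with its own number. With so few mice, these values cannot show whether any same-numbered mice belong together. Of 593 values for single imprinted genes over 17 alternatives, 15 passed the threshold where the main value did not, 12 moved by more than the spread between mice and 566 did neither. Counting error limits genes such as Magel2, Asb4 and Peg12, at about 1 CPM or below.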
